A study of Nannochloropsis oceanica with 15 samples.

Results

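Nitrate reductase and nitrite reductase are successive enzymes of nitrate use, and a pair of genes named for them is described here, 2 of the 10434 genes in a transcriptome table of Nannochloropsis oceanica. They are NO09G02340, named in the table as an NADH nitrate reductase although its other annotation goes against that name, and NO26G00710, named as a ferredoxin-nitrite reductase. They are listed by gene ID and were selected on their measured counts over the 5 times, since the pair was proposed with results of these data in view, so their own values are given as a description with no test. Both members passed the filter on low counts, which kept 9321 genes.

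In algae and plants, nitrate reductase passes electrons from NADH or NADPH through FAD, a cytochrome b5 heme and a molybdenum cofactor to nitrate in the cytosol. Nitrite then enters the plastid, where nitrite reductase reduces it to ammonium with electrons from ferredoxin, using siroheme and an iron-sulfur cluster. Glutamine synthetase and glutamate synthase fix that ammonium into amino acids.

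The study followed strain IMET1, a unicellular oil-storing marine alga, at 0, 6, 12, 24 and 48 h of phosphate deprivation, with 3 libraries of total RNA at each time (replicates a, b and c), 15 in all. Cells in linear growth under continuous light were spun down, rinsed in seawater and placed in f/2 medium lacking phosphate. Every library carries the phosphate deprivation label, those of 0 h included, and none of the 15 libraries is labelled as complete medium. The sample titles add a P at the later times and not at 0 h. Deprivation, time in culture and the handling at transfer therefore cannot be told apart, and nothing says that a replicate letter marks 1 culture followed through time, so the p-values below measure the spread between libraries, which may be technical. Each later time is set against the same 0 h libraries, so those comparisons are not independent of each other. In bulk RNA, fewer cells that carry a transcript and less of it per cell cannot be told apart.

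Total counts per library ran from 16649421 to 26349336. Levels are given as CPM, the count as a share of the library's total with TMM scaling between libraries. The authors' FPKM, which also divide by gene length, are used where levels of different genes are compared, and ranks are given on both scales. Folds are log2 fold changes from edgeR's quasi-likelihood fit of the 15 libraries with their standard errors, and a gene that is no member was called changed at a Benjamini-Hochberg adjusted p under 0.05. Over all tested genes the median of the log2 fold changes against 0 h lay between -0.04 (12 h) and 0.03 (24 h).

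The annotation in the table goes against the name of one member. For NO09G02340, the nitrate reductase name rests on a Swiss-Prot match to Lotus japonicus. Its closest protein match is an NADH-dependent fumarate reductase of Nannochloropsis gaditana, its Gene Ontology terms are succinate dehydrogenase activity and protein flavinylation, and its Pfam domains are FAD-binding, ApbE and NAD-binding domains. No molybdopterin or cytochrome b5 domain and no KEGG entry is listed for it. It is therefore called by its ID below. NO26G00710 carries the KEGG entry for ferredoxin-nitrite reductase and the iron-sulfur and ferredoxin-like domains of nitrite and sulfite reductases, and its name is kept.

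In all, 5 genes carry a Swiss-Prot nitrate reductase name, and 1 of them, NO14G02460, is among the 10 genes that the table places in the KEGG nitrogen metabolism pathway. NO14G02460 lists the molybdopterin-binding, molybdenum cofactor dimerisation, cytochrome b5, FAD and NAD domains of a nitrate reductase. Of the others, NO08G01220 and NO21G02360 have cytochrome b5 reductases as closest matches, and NO25G00630 a cytochrome b5. NO14G02460 is no member, and its values are given where the comparison with nitrite reductase turns on it.

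NO09G02340 stayed near its starting level through 24 h and stood highest at 48 h. Its level was 153.7, 147.6 and 149.8 CPM at 0 h, 154.5, 138.6 and 123.6 CPM at 6 h, and 127.9, 134.9 and 128.2 CPM at 12 h (replicates a, b and c). At 24 h it was 136.6, 139.4 and 191.9 CPM, and at 48 h 591, 533.1 and 571.3 CPM. All 3 libraries of 48 h lay above the 12 earlier ones, and the highest earlier library was replicate c of 24 h. The 12 h libraries lay just below those of 0 h and of 24 h, while the 6 h libraries overlapped with each of 0, 12 and 24 h.

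Means of NO09G02340 were 150.3 ± 3.1 CPM at 0 h, 138.9 ± 15.5 at 6 h, 130.3 ± 3.9 at 12 h, 156.0 ± 31.2 at 24 h and 565.2 ± 29.4 at 48 h (SD, n = 3 each). Its log2 fold change against 0 h was -0.11 ± 0.12 at 6 h, -0.21 ± 0.12 at 12 h and 0.05 ± 0.12 at 24 h (SE), and the 24 h value changed sign, to -0.12, without replicate c of that time. At 48 h it was 1.91 ± 0.12, a fold of 3.76. Between successive times the log2 difference was -0.09 ± 0.12 at 12 h against 6 h, 0.26 ± 0.12 at 24 h against 12 h, and 1.86 ± 0.12 at 48 h against 24 h, a fold of 3.62. Nearly all of the difference therefore lay in the last interval. Without replicate c of 24 h, the 24 h against 12 h value was 0.08.

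Among the 9321 tested genes, 130, or 1.39%, had a larger log2 fold change than NO09G02340 at 48 h against 24 h, and 450, or 4.83%, at 48 h against 0 h. By CPM the gene ranked 219 to 229 in the 48 h libraries and 1109 to 1857 in the earlier ones. By FPKM it ranked 514 to 525 in the 48 h libraries and 2105 to 3406 in the earlier ones. FPKM gave the same picture, with 120.6, 114.8 and 119.2 at 48 h, against 31.13, 29.45 and 30.03 at 0 h.

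**Figure D1:**
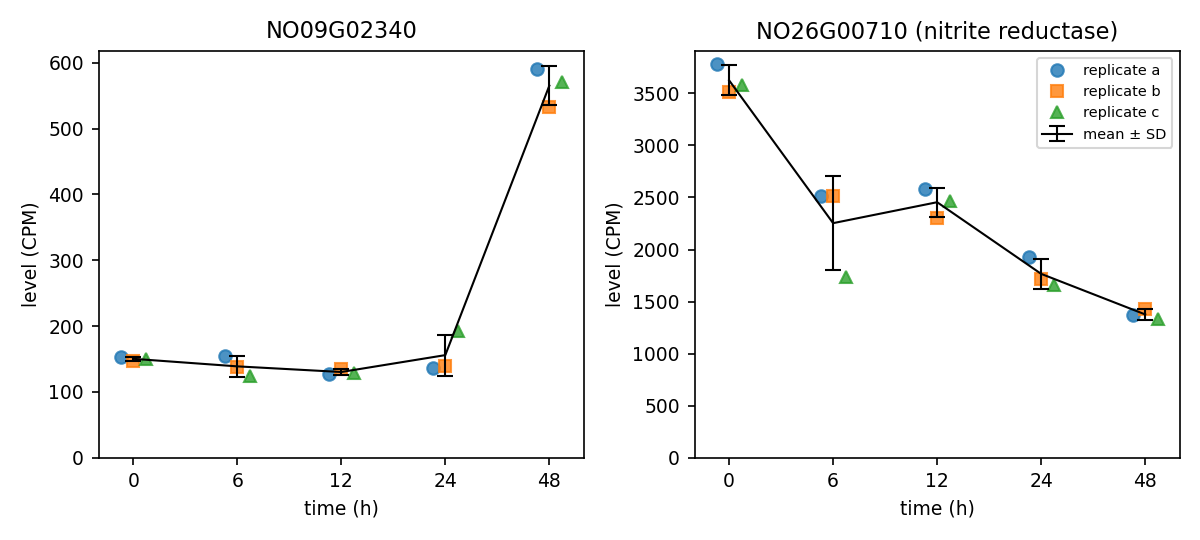
Level (CPM, linear axes from 0) of NO09G02340, left, and of the nitrite reductase gene NO26G00710, right, at 0, 6, 12, 24 and 48 h; markers are the replicates a, b and c, and bars are the mean ± SD of 3 libraries. NO09G02340 reached 533.1 to 591 CPM at 48 h, above all earlier libraries, and NO26G00710 lay at 1329 to 1433 CPM at 48 h, below all earlier libraries.

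The nitrite reductase gene NO26G00710 moved the other way: it was among the most abundant transcripts at 0 h and lower at every later time. Its level was 3785, 3513 and 3575 CPM at 0 h, 2516, 2510 and 1733 CPM at 6 h, and 2585, 2307 and 2470 CPM at 12 h. At 24 h it was 1928, 1714 and 1656 CPM, and at 48 h 1368, 1433 and 1329 CPM. The 0 h libraries lay above all others and the 48 h libraries below all others. The 6 h libraries overlapped with those of 12 h and of 24 h, and the 12 h and 24 h libraries did not overlap.

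Means of NO26G00710 were 3624 ± 142 CPM at 0 h, 2253 ± 450 at 6 h, 2454 ± 140 at 12 h, 1766 ± 143 at 24 h and 1377 ± 53 at 48 h (SD, n = 3 each). Its log2 fold change against 0 h was -0.69 ± 0.12 at 6 h, -0.56 ± 0.12 at 12 h, -1.04 ± 0.12 at 24 h and -1.40 ± 0.12 at 48 h (SE). Without replicate c of 6 h, the lowest of that time, the 6 h value was -0.54, and all 14 other libraries were kept. Successive times differed by 0.12 ± 0.12 at 12 h against 6 h, by -0.47 ± 0.12 at 24 h against 12 h and by -0.36 ± 0.12 at 48 h against 24 h. The 12 h against 6 h value was -0.03 without that same library, so its sign rested on it.

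At 48 h against 0 h, 261 tested genes, or 2.8%, had a lower log2 fold change than NO26G00710. In abundance the gene ranked 18 to 21 by CPM in the 0 h libraries and 66 to 79 in the 48 h libraries. By FPKM it ranked lower, at 77 to 84 in the 0 h libraries and 257 to 438 in the 48 h libraries. On both scales it stayed among the more abundant of the 9321 tested transcripts.

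The FPKM of the nitrite reductase gene did not follow its counts in every library. It was 493.1, 437.8 and 497.8 FPKM at 0 h, 362.7, 442 and 147.9 FPKM at 6 h, and 278.4, 313.3 and 323.9 FPKM at 12 h. At 24 h it was 286.9, 265.6 and 220.5, and at 48 h 134.4, 193.4 and 161.8. On this scale replicate b of 6 h lay within the range of 0 h and replicate c of 6 h within the range of 48 h.

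The count and the FPKM of a library together imply a gene length, which varied between libraries. For NO26G00710 it ran from 6208 to 12753 bases, the highest value being that of replicate c of 6 h, a ratio of 2.05. That ratio was larger than in 97.2% of the 7990 genes with a mean count of at least 200, whose median was 1.08. For NO09G02340 the implied length ran from 4655 to 5013 bases, a ratio of 1.08. The reason for the variation was not tested, and counts, not FPKM, are the basis of the fold changes above.

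**Figure D2:**
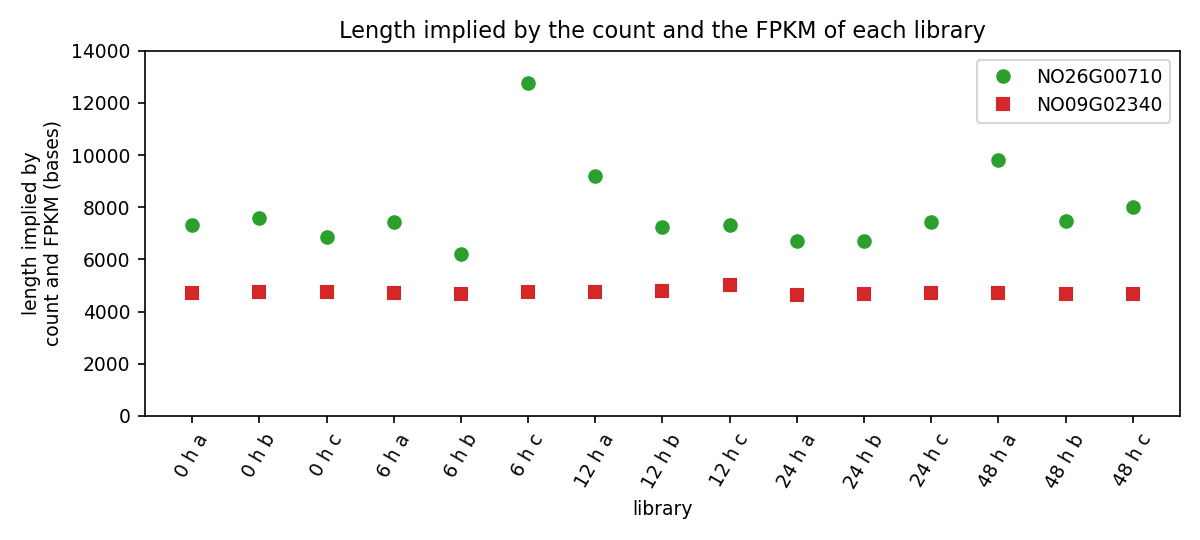
Gene length in bases (linear axis from 0) implied by the deposited count and FPKM in each of the 15 libraries, for the nitrite reductase gene NO26G00710 (circles) and NO09G02340 (squares). The squares lie between 4655 and 5013 bases, and the circles between 6208 and 12753, with the highest in replicate c of 6 h.

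Per length, NO09G02340 was the scarcer transcript at all 5 times, and the gap narrowed at 48 h. Its FPKM in percent of that of the nitrite reductase gene was 6.36 ± 0.35 at 0 h, 12.0 ± 6.22 at 6 h, 8.65 ± 0.984 at 12 h, 13.4 ± 4.34 at 24 h and 74.3 ± 15.2 at 48 h (SD, n = 3 each). The 6 h libraries gave 9.67%, 7.31% and 19.1%, the last being replicate c with its departing FPKM. At 48 h they gave 89.7%, 59.4% and 73.7%, all above every earlier library. The 89.7% came with replicate a, where the implied length of the nitrite reductase gene was 9797 bases. From CPM, which do not divide by length, the 48 h libraries gave 43.2%, 37.2% and 43.0%, also above every earlier library.

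NO14G02460, the gene with the domains of a nitrate reductase, fell at all 4 later times, while NO09G02340 stood higher at 48 h; the difference between both genes was not tested. Its level was 1786, 1713 and 1729 CPM at 0 h, 1135, 1052 and 807.7 CPM at 6 h, and 1357, 1218 and 1506 CPM at 12 h. At 24 h it was 1415, 1217 and 1238 CPM, and at 48 h 810.8, 927.2 and 863.6 CPM. All 12 later libraries lay below those of 0 h.

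In edgeR's quasi-likelihood test the log2 fold change of NO14G02460 against 0 h was -0.80 ± 0.12 at 6 h (adjusted p = 0.00013), -0.36 ± 0.12 at 12 h (adjusted p = 0.019), -0.43 ± 0.12 at 24 h (adjusted p = 0.01) and -1.01 ± 0.12 at 48 h (adjusted p = 2.9e-05). The 12 h call was lost without replicate a of 0 h (adjusted p = 0.053) or without replicate b of 12 h (adjusted p = 0.079). The gene also rose at 12 h against 6 h by 0.45 ± 0.12 (adjusted p = 0.0085) and fell at 48 h against 24 h by 0.57 ± 0.12 (edgeR adjusted p = 0.0052).

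Per length, NO14G02460 was the most abundant of the 5 genes with a nitrate reductase name at 0 h, at 256.8 ± 7.6 FPKM, against 30.2 ± 0.9 FPKM for NO09G02340 (SD, n = 3 each). The FPKM of NO14G02460 was 8.50 ± 0.03 times that of NO09G02340 at 0 h and 1.13 ± 0.14 times at 48 h. In percent of the nitrite reductase FPKM, NO14G02460 stood at 54.0 ± 3.1 at 0 h, 61.5 ± 26.7 at 6 h, 66.0 ± 8.0 at 12 h, 80.1 ± 6.9 at 24 h and 82.6 ± 7.3 at 48 h. The spread at 6 h came with 91.6% in replicate c, whose nitrite reductase FPKM departs from its count, against 52.1% and 40.7% in replicates a and b. From CPM, which do not divide by length, the percentage was 48.1 ± 0.8 at 0 h, 44.5 ± 2.4 at 6 h and 55.4 ± 4.8 at 12 h. It was 73.1 ± 1.9 at 24 h and 63.0 ± 3.2 at 48 h. The steady rise seen with FPKM was therefore absent from CPM, where 6 h lay below 0 h and 48 h below 24 h.

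Of the other genes with a nitrate reductase name, NO21G02360 rose by 0.20 ± 0.05 on the log2 scale at 48 h (edgeR adjusted p = 0.0057). NO08G01220 rose by 0.19 ± 0.06 at 6 h (edgeR adjusted p = 0.028) and fell by 0.22 ± 0.06 at 48 h (edgeR adjusted p = 0.016), and its call at 6 h was lost without any one of replicates a and b of 0 h and a and b of 6 h, where adjusted p reached 0.12. Its call at 48 h was lost without replicate c of 0 h (edgeR adjusted p = 0.072) or without replicate a of 48 h (edgeR adjusted p = 0.055).

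NO25G00630, the cytochrome b5 match, stood at 263.6, 295.9 and 306.5 CPM at 12 h, against 148.2, 144.9 and 145.9 CPM at 0 h, so the groups did not overlap. It stood at 6.89 CPM in replicate a of 6 h, against 189 and 163 CPM in the other libraries of that time, and its log2 fold change at 6 h was -0.29 ± 0.71 with that library (edgeR adjusted p = 0.77) and 0.26 without it (edgeR adjusted p = 0.12). That library also decided the later calls through the shared spread. At 12 h the log2 fold change was 0.98 with it (edgeR adjusted p = 0.25) and 0.97 without it (edgeR adjusted p = 2.1e-05), and at 24 h 0.63 with it (edgeR adjusted p = 0.51) and 0.61 without it (edgeR adjusted p = 0.0013).

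**Figure D3:**
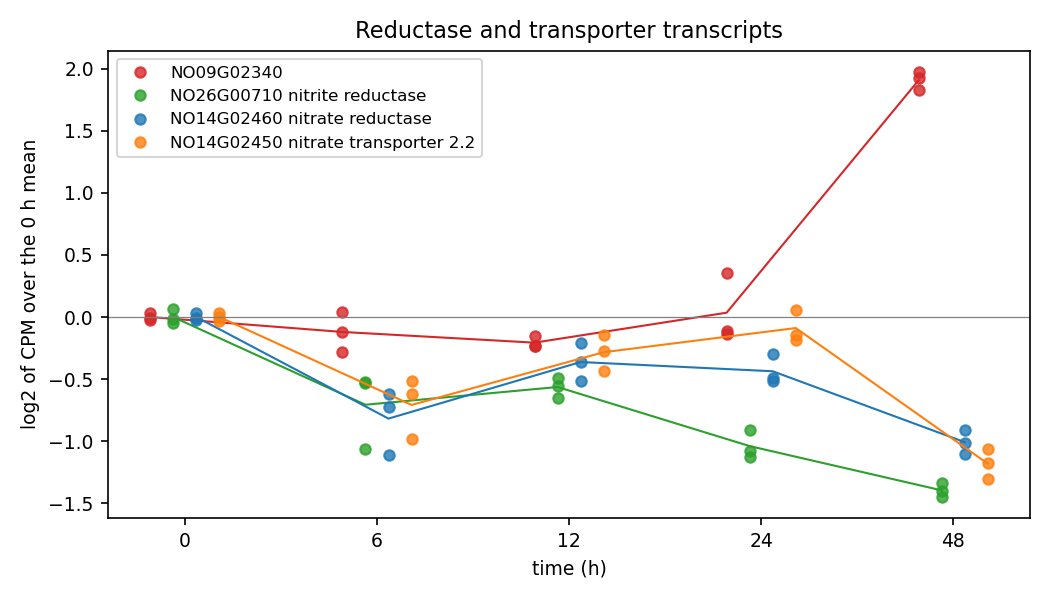
Log2 of CPM over the mean of the 0 h libraries, for NO09G02340, the nitrite reductase gene NO26G00710, the nitrate reductase gene NO14G02460 and the nitrate transporter gene NO14G02450 at 0, 6, 12, 24 and 48 h; points are libraries (3 per time), offset sideways for each gene, and lines join the means. At 48 h NO09G02340 lies above 0 in all 3 libraries and the other genes below it in all 3.

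High-affinity nitrate transporter 2.2, NO14G02450, is a plasma membrane nitrate carrier by homology, and its ID directly precedes that of NO14G02460. Its level was 1808, 1726 and 1765 CPM at 0 h, 1234, 1147 and 892.2 CPM at 6 h, and 1601, 1307 and 1460 CPM at 12 h. At 24 h it was 1841, 1556 and 1599 CPM, and at 48 h 712.9, 844 and 783.4 CPM. It was low at 6 h and at 48 h, and its 24 h libraries overlapped with those of 0 h.

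NO14G02450 fell at 6 h by 0.70 ± 0.12 on the log2 scale (edgeR adjusted p = 0.0004) and at 48 h by 1.18 ± 0.12 (edgeR adjusted p = 9.2e-06). At 12 h its log2 fold change was -0.28 ± 0.12 (edgeR adjusted p = 0.058) and at 24 h -0.08 ± 0.12 (edgeR adjusted p = 0.61). It fell by 1.09 ± 0.12 at 48 h against 24 h (edgeR adjusted p = 7.4e-05), the interval in which NO09G02340 had its large difference in the other direction. Among the 4 transcripts, replicate c of 6 h was the lowest library of its time in each, and the values without it are given above for nitrite reductase.

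Nitrite transport was represented by NO07G02740, named nitrite transporter nar1, and NO02G02160, named formate nitrite transporter. The membrane in which they act was not examined. NO07G02740 stood at 63.32, 56.95 and 59.28 CPM at 12 h, against 155.7, 143.6 and 151.1 CPM at 0 h. It fell at all 4 later times, by 0.41 at 6 h, 1.33 at 12 h, 0.55 at 24 h and 0.62 at 48 h on the log2 scale (SE 0.06, edgeR adjusted p at most 0.00015). The authors' FPKM of NO07G02740 did not follow its counts: it averaged 64.0 ± 12.4 at 6 h and 57.2 ± 15.5 at 24 h, against 53.2 ± 2.5 at 0 h (SD, n = 3 each), so its direction at these times turns with the scale. At 12 h FPKM was lower too, at 37.6 ± 3.3. NO02G02160 fell by 0.34 ± 0.06 at 12 h (edgeR adjusted p = 0.00052) and rose by 0.59 ± 0.06 at 24 h (edgeR adjusted p = 1.5e-05). High-affinity nitrate transporter 2.1, NO30G01230, was scarce, at 13.11 to 16.05 CPM at 0 h, and had log2 fold changes of -0.70 to 0.27 with an SE of 0.53 or more. At 24 h, where its libraries stood at 17.35, 5.629 and 4.146 CPM, the value was -0.70 (edgeR adjusted p = 0.31), and without replicate a it was -1.59 (edgeR adjusted p = 0.019).

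For ammonium transport, NO20G02430 fell by 0.38 ± 0.08 at 6 h and by 0.33 ± 0.08 at 24 h on the log2 scale (edgeR adjusted p = 0.0017 and 0.0053). The more abundant NO09G03110 was listed at 2285, 0.2301 and 2113 CPM at 12 h, against 4292, 4301 and 4277 CPM at 0 h. Its log2 fold change at 12 h was -1.55 ± 1.34 with replicate b of 12 h (edgeR adjusted p = 0.33) and -0.96 without it (edgeR adjusted p = 9.3e-06). Leaving out that library also moved the edgeR adjusted p at 6 h, for a log2 fold change of -0.64, to 0.00012, against 0.72 with it. At 48 h, for -0.51, the adjusted p was 0.00064 without it and 0.78 with it.

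All 6 genes of glutamine and glutamate synthesis fell at 6 h, where 25.7% of all tested genes were called lower and 50.3% in either direction. At 12 h 5 of the 6 fell, where 32.7% of all tested genes were called lower and 64.8% in either direction. Ferredoxin-dependent glutamate synthase, NO10G02290, which shares its electron donor with nitrite reductase, fell by 1.28 ± 0.09 at 6 h and by 1.56 ± 0.09 at 12 h on the log2 scale (edgeR adjusted p = 4.7e-07 and 3.4e-08), and was still lower at 48 h by 0.83 ± 0.09 (edgeR adjusted p = 1.8e-05).

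The NADH-dependent glutamate synthase NO08G04050 fell by 1.07 ± 0.06 at 12 h (edgeR adjusted p = 1.7e-08), and the glutamine synthetases NO02G03600 and NO07G03230 by 0.94 ± 0.11 and 0.40 ± 0.06 (edgeR adjusted p = 6.8e-06 and 0.00012). At 24 h against 12 h all 6 genes rose, by 0.44 to 1.03 on the log2 scale (edgeR adjusted p at most 0.0042), where 27.2% of all tested genes were called higher and 53.7% in either direction, while the log2 difference of nitrite reductase over the same interval was the -0.47 given above. NADP-specific glutamate dehydrogenase, NO16G00690, was higher at 24 h than at 0 h by 0.61 ± 0.05 (edgeR adjusted p = 2.9e-06).

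The molybdenum cofactor serves nitrate reductase, and 8 of the 12 genes matched to its synthesis were tested. At 6 h 5 of the 8 fell and 1 rose, beside 25.7% and 24.7% of all tested genes. CNX1, NO12G00230, which inserts molybdenum into the pterin, fell by 0.80 ± 0.11 at 6 h (edgeR adjusted p = 5.4e-05) and rose by 0.62 ± 0.11 at 24 h (edgeR adjusted p = 0.00052). Cyclic pyranopterin monophosphate synthase, NO24G02300, which acts early in the pathway, had a log2 fold change of -0.52 at 6 h (edgeR adjusted p = 0.012). It rose by 0.79 ± 0.15 at 48 h (edgeR adjusted p = 0.00087).

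The genes of this group with the largest log2 fold changes against 0 h were a pair named molybdenum cofactor sulfurase, an enzyme that in plants serves xanthine dehydrogenase and aldehyde oxidase and not nitrate reductase. NO01G03160 fell by 0.35 ± 0.08 at 6 h (edgeR adjusted p = 0.0042) and rose by 0.85 ± 0.08 at 12 h, 1.67 ± 0.09 at 24 h and 1.30 ± 0.08 at 48 h (edgeR adjusted p at most 2.2e-06). NO25G01080 rose by 1.29 ± 0.19 at 6 h and 1.73 ± 0.19 at 12 h (edgeR adjusted p = 0.00011 and 5.8e-06) and stood at 0.28 ± 0.19 at 48 h (edgeR adjusted p = 0.24).

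Siroheme, the heme of nitrite and sulfite reductases, was represented by 2 tested genes. Sirohydrochlorin ferrochelatase, NO01G02120, which inserts the iron, fell by 0.26 ± 0.06 at 24 h (edgeR adjusted p = 0.0033), and its log2 fold change was between -0.12 and 0.06 at the other times. Uroporphyrinogen-III C-methyltransferase, NO12G00790, had log2 fold changes of -0.54 to -0.22 with an SE of 0.24 and an edgeR adjusted p of 0.091 or more. Sulfite reductase, NO16G01010, which shares siroheme and ferredoxin with nitrite reductase, rose by 0.53 ± 0.05 at 12 h, 0.74 ± 0.05 at 24 h and 0.66 ± 0.05 at 48 h (edgeR adjusted p at most 1.3e-06).

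Of the 5 tested genes with a ferredoxin name, 3 fell at every later time, beside 25.7% of all tested genes called lower at 6 h, 32.7% at 12 h, 20.8% at 24 h and 23% at 48 h (50.3%, 64.8%, 46% and 49.3% in either direction). Ferredoxin-NADP reductase, NO16G02580, fell by 1.00 ± 0.09 at 12 h and by 0.66 ± 0.09 at 48 h on the log2 scale (edgeR adjusted p = 6.5e-07 and 5.5e-05), and the ferredoxin C genes NO05G02270 and NO05G02350 fell by 1.23 ± 0.05 and 0.94 ± 0.07 at 12 h (edgeR adjusted p = 3e-09 and 1.4e-07). NO09G00110, named ferredoxin-1, rose by 2.68 ± 0.24 at 48 h and by 2.14 ± 0.23 at 48 h against 24 h (edgeR adjusted p = 3.2e-06 and 6.6e-05). Like NO09G02340, it had its large difference in the last interval.

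**Figure D4:**
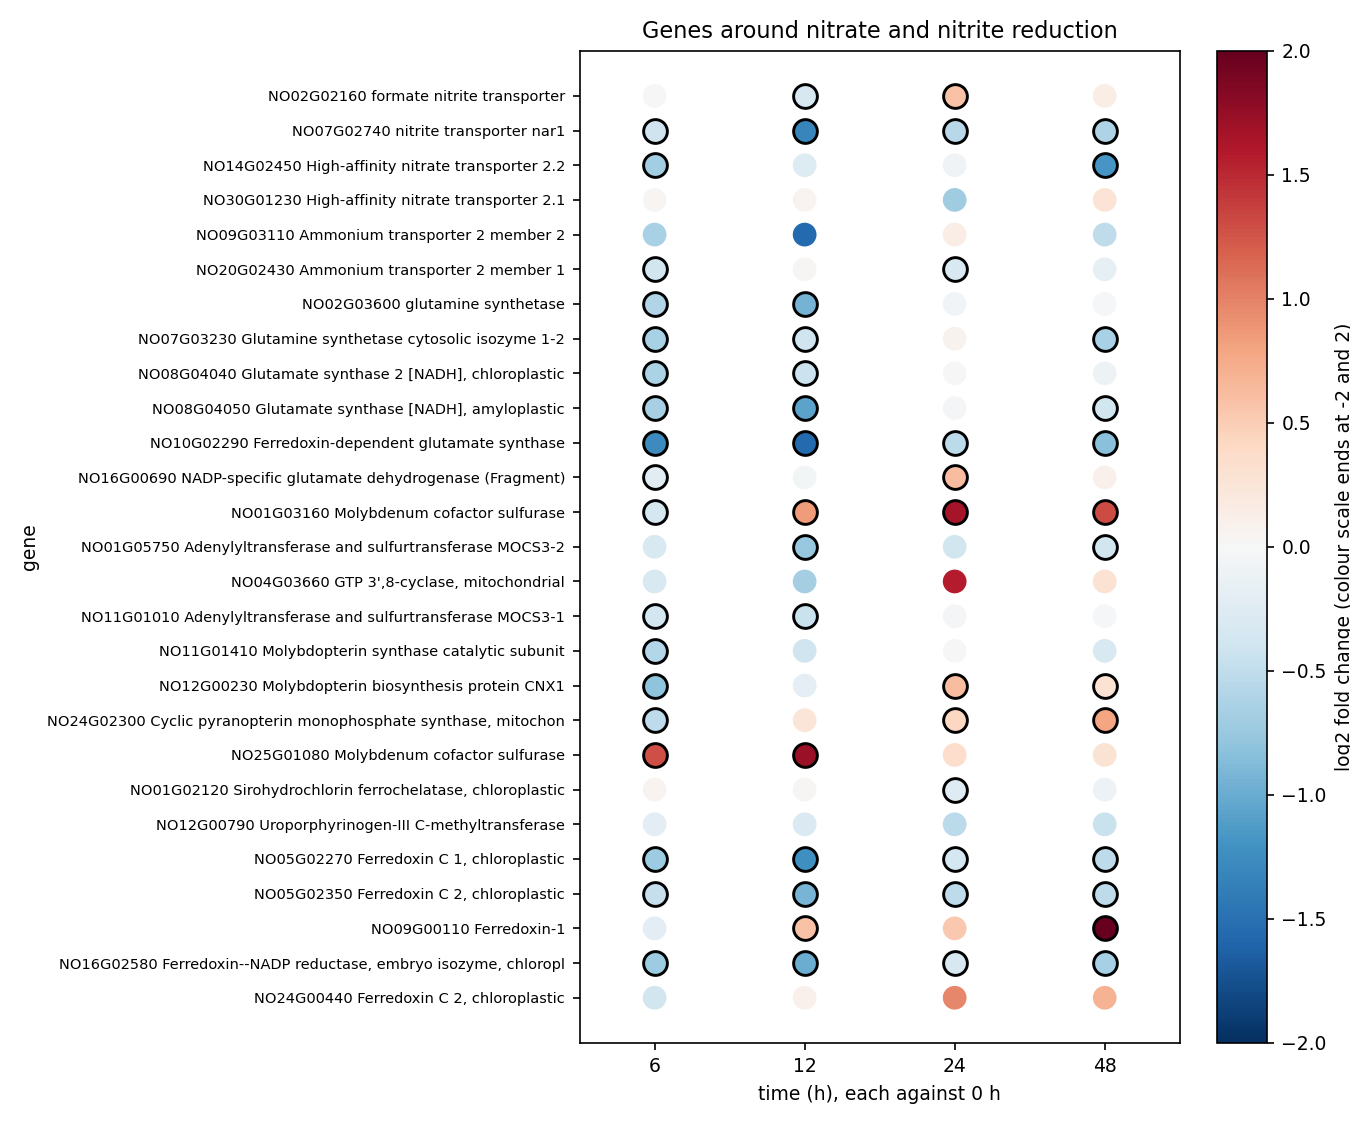
Log2 fold change against 0 h at 6, 12, 24 and 48 h of the 27 tested genes of nitrate, nitrite and ammonium transport, glutamine and glutamate synthesis, molybdenum cofactor, siroheme and ferredoxin; colour gives the value, the scale ends at -2 and 2 (NO09G00110 at 48 h, 2.68, lies beyond it), and a black outline marks an edgeR adjusted p under 0.05. The 6 genes of glutamine and glutamate synthesis are outlined and blue at 6 h, and 1 of them, NO10G02290, is so at all 4 times.

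Across 14 groups of genes around nitrogen use, matched by words to the descriptions, 76 of 83 genes were tested, with both members left out. In edgeR's quasi-likelihood test at 6 h, 12 rose and 34 fell, against a background of 24.7% and 25.7% of all tested genes (50.3% in either direction), and the median log2 fold change was -0.29, against -0.03 over all tested genes. At 12 h 19 rose and 30 fell, against 32.1% and 32.7% of all tested genes (64.8%), with a median of -0.19, against -0.04.

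At 24 h 21 of the 76 rose and 15 fell, against 25.2% and 20.8% of all tested genes (46%), with a median of 0.03, as over all tested genes. At 48 h 21 rose and 20 fell, against 26.3% and 23% of all tested genes (49.3%), with a median of -0.03, against 0.01. At 24 h against 12 h 36 rose and 11 fell, against 27.2% and 26.6% of all tested genes (53.7%). At 48 h against 24 h 6 rose and 20 fell, against 12.3% and 10.4% of all tested genes (22.7%). At 12 h against 6 h 19 rose and 24 fell, against 23.5% and 23.3% of all tested genes (46.8%). Called in either direction were 60.5% of the 76 genes at 6 h, 64.5% at 12 h, 47.4% at 24 h and 53.9% at 48 h against 0 h, which at 12, 24 and 48 h is close to the share of all tested genes. The nitrite reductase gene, at -1.40 at 48 h, lay well below the median of these genes at that time.

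Outside the central steps, single genes of the other groups had large values. Protein NLP5, NO20G00430, of the plant family of nitrate-responsive transcription factors, rose at all 4 later times, by 1.96 ± 0.29 at 6 h to 2.46 ± 0.29 at 24 h (edgeR adjusted p at most 0.00012). The other gene of the regulator group, NO03G00020, is a beta-catenin-like protein that the words matched by accident. L-asparaginase, NO01G02640, which frees ammonium from asparagine, rose by 3.01 ± 0.37 at 12 h (edgeR adjusted p = 1.5e-05), and asparagine synthase, NO14G00880, fell by 1.71 ± 0.11 (edgeR adjusted p = 5.9e-08). Acetylornithine aminotransferase, NO30G00610, of arginine synthesis, rose by 1.23 ± 0.08 at 12 h (edgeR adjusted p = 6e-08).

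Cytochrome b5 isoform A, NO23G00080, a small electron carrier, rose by 3.49 ± 0.33 at 12 h and 2.25 ± 0.31 at 48 h (edgeR adjusted p = 1.3e-06 and 8.7e-05). Nitric oxide dioxygenase, NO11G03360, which turns nitric oxide into nitrate, fell by 1.04 ± 0.18 at 6 h (edgeR adjusted p = 0.00034) and rose by 1.38 ± 0.18 at 48 h against 24 h (edgeR adjusted p = 0.00023). Uricase, NO02G02880, which opens the purine ring, fell by 0.69 ± 0.07 at 12 h and rose by 0.45 ± 0.07 at 24 h (edgeR adjusted p = 2.3e-06 and 0.00021).

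The genes whose log2 CPM over the 15 libraries was most like that of each member were ranked by Pearson's r among 7470 described genes, as a description with no p, since the 15 points are 5 times of 3 libraries each. For NO09G02340 the closest were NO19G02010, a tRNA (guanine(37)-N1)-methyltransferase, at 0.973, NO08G02260, sodium/proton antiporter 1, at 0.970, the hypothetical protein NO04G03380 at 0.968, and NO06G00510, a plastid NADP malic enzyme, at 0.967. The hypothetical protein NO24G00320, at 0.965, and NO05G02070, the iron-sulfur subunit of the cytochrome b6-f complex, at 0.963, followed. The most opposed genes were NO06G03380, an ABC transporter F family member, at -0.939, the hypothetical protein NO03G04760 at -0.935 and NO11G00670, ribonuclease TUDOR 2, at -0.913.

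For the nitrite reductase gene the closest were NO06G03670, chromatin remodeling 5, at 0.960, NO03G01840, T-complex 11, at 0.957, NO05G00470, an SPT4 elongation factor homolog, at 0.944, and NO01G04880, phototropin-1B, a blue-light receptor, at 0.936. L-aspartate oxidase, NO08G01370, the first enzyme of NAD synthesis in plastids, at 0.922, and the kinase SRK2F, NO07G04630, at 0.920, followed. The most opposed were NO20G00780, a cysteine desulfurase, at -0.959, NO12G00270, selenide water dikinase, at -0.957, and NO06G00490, a cobalamin synthesis protein, at -0.956.

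Between the members themselves r was -0.659. The nitrite reductase gene had an r of 0.840 with the nitrate reductase gene NO14G02460 and of 0.718 with the transporter gene NO14G02450, whereas NO09G02340 had -0.600 and -0.749 with them. Counted from the highest r among the 7470 genes, NO14G02460 and NO14G02450 ranked 49 and 233 for nitrite reductase. For NO09G02340 they ranked 7096 and 7406, and nitrite reductase ranked 7254, so other genes were closer or more opposed in each case.

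**Figure D5:**
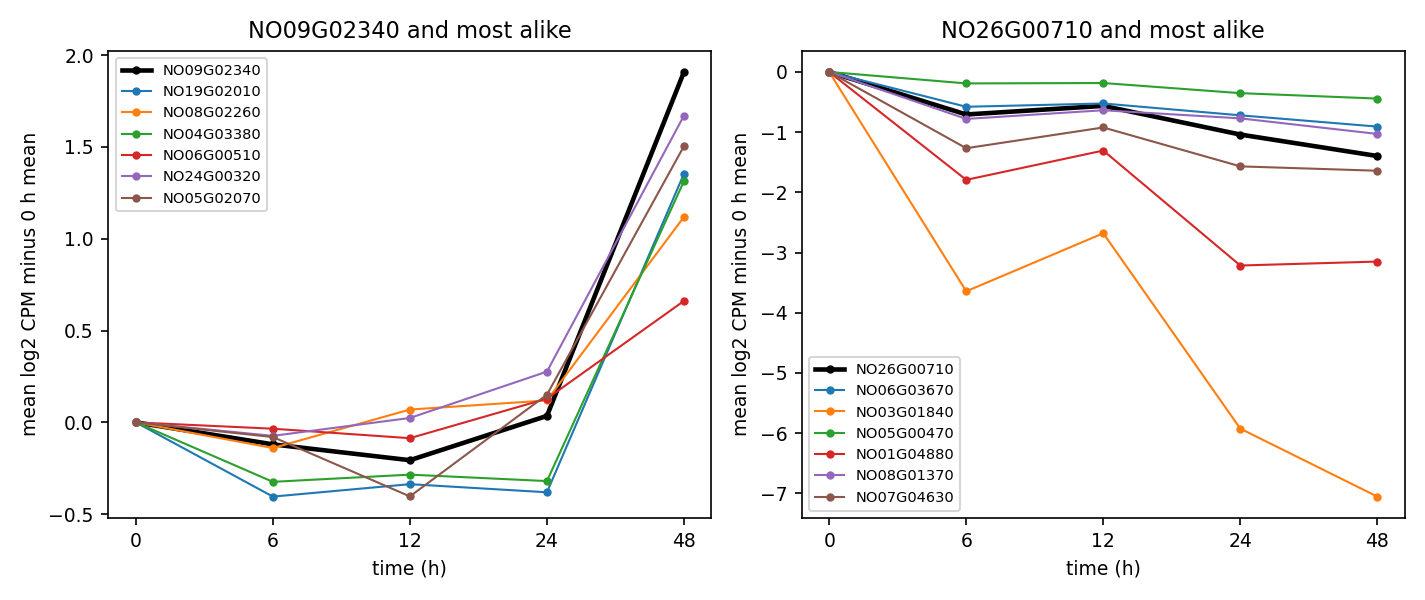
Mean log2 CPM minus its 0 h mean (3 libraries per time) of NO09G02340, left, and of the nitrite reductase gene NO26G00710, right, each in black with the 6 genes of highest Pearson r over the 15 libraries. The left profiles stay near 0 until 24 h and stand highest at 48 h, and the right ones lie below 0 at all 4 later times, with sizes that differ between genes.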

How the data were processed

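RNA-seq of 15 libraries was read from 1 table. Per the file headers it gives an expected count and an FPKM per gene and library. Reads were aligned with HISAT2, per the submitters' processing notes; its version, the read counter, the genome build, the annotation and any use of strand were not given in the sources used here. In this table the deposited estimated counts are whole in the table: of 760 values from 2 to 5, when worked back from FPKM, 85.1% came out less than 1 count below the count and 16.2% within 0.05 of a whole number, so they were taken as rounded. FPKM were calculated by the authors per gene length and depth.

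Counts were tested with edgeR 4.0.16 in R 4.3.3 (filterByExpr by group, TMM, quasi-likelihood F-test, 5 group means of all 15 libraries, Benjamini-Hochberg over 9321 genes at 0.05, two-sided); log2 CPM used a prior count of 2. The filter removed 1113 genes, 336 of them at 0 throughout. For counting error only, 0 counts still allows 3 counts (0.114 to 0.18 CPM). DESeq2 1.42.0 was an alternative, and figures used Python 3.11.15, pandas 2.3.3 and matplotlib 3.10.9. The steps were tested on simulated data.

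The members and gene groups were chosen with earlier results of these data known. The words that define the groups were adjusted after the table's descriptions and the mean counts of some genes were seen: a group for other nitrate reductase names and words for molybdenum cofactor genes were added, and mismatched names were left out. Named genes were all tested genes of transport, glutamine and glutamate synthesis, molybdenum cofactor, siroheme and ferredoxin groups (values in the text or their plot), and examples from the 2 largest rises and falls at 12 h against 0 h in other groups. Likeness took genes with a description and a mean log2 CPM of at least 3, the 6 highest and 3 lowest r. The reference listed 160 organelle genes, of which 0 matched, so no positions or sequences are given. Libraries of 1 time differed, with chi-square values of at least 55.9 per degree of freedom, so none is a copy. Alternatives were other scalings, DESeq2, other filters, a replicate block by letter, a fit of only the 6 libraries compared, FPKM with pseudocounts of 1 and 0.1, a 2-fold threshold, and each library left out.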

Additional observations from a re-analysis of the deposited data

How the results depend on the processing

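DESeq2 size factors, DESeq2, the filters on low counts and the fit of only the 6 libraries compared moved no member's log2 fold change by more than its spread and no count by over 1.5 times. Upper-quartile scaling, which moved the median of all genes at 12 h to -0.104, gave -0.27 for NO09G02340 at 12 h against 0 h. Mean FPKM gave, with a pseudocount of 1 and of 0.1, 0.075 and 0.077 for NO09G02340 at 6 h against 0 h and -0.27 and -0.28 at 12 h against 6 h. For nitrite reductase it gave -0.88 and -0.89 at 24 h against 0 h, -1.54 and -1.54 at 48 h against 0 h, -0.24 and -0.24 at 24 h against 12 h and -0.66 and -0.66 at 48 h against 24 h; the cause was not tested. With only changes of at least 2-fold, 5 of the 76 listed genes were called higher and 2 lower at 6 h, beside 1367 of all 9321 tested genes in either direction. At 12 h 8 were higher and 7 lower (2748 of all tested genes), at 24 h 4 and 1 (1112) and at 48 h 6 and 4 (1404). The share of listed genes called was below that of all tested genes at each of these times, a difference that was not tested.

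Leaving out 1 library in turn, the log2 fold change of NO09G02340 ran from -0.20 to -0.05 at 6 h, -0.23 to -0.19 at 12 h, -0.12 to 0.14 at 24 h and 1.88 to 1.95 at 48 h against 0 h, and from -0.17 to -0.02, 0.08 to 0.35 and 1.77 to 2.03 between successive times. That of nitrite reductase ran from -0.78 to -0.54, -0.61 to -0.52, -1.11 to -0.99 and -1.43 to -1.36 against 0 h, and from -0.03 to 0.21, -0.54 to -0.43 and -0.40 to -0.29 between successive times. Listed genes called higher ran from 9 to 12, 15 to 21, 18 to 22 and 18 to 22, lower from 32 to 38, 28 to 35, 14 to 18 and 17 to 22, and all genes called from 4221 to 4760, 5672 to 6144, 3732 to 4493 and 4068 to 4843. The log2 of the FPKM ratio of NO09G02340 to nitrite reductase over its 0 h value ran from 0.42 to 1.18, 0.37 to 0.53, 0.78 to 1.24 and 3.39 to 3.68, the lowest at 6 h being without replicate c of that time. It was 0.92, 0.44, 1.07 and 3.55 with all libraries, and 0.59, 0.36, 1.11 and 3.31 from CPM.

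Same-lettered libraries did not visibly deviate together (30 correlations from -0.088 to 0.077, with 5 of 15 libraries closest to their own letter). Deviations were taken from means of 3 libraries, so a weak link by letter could be missed. With a replicate block by letter, NO09G02340 was at 1.91 and nitrite reductase at -1.40 at 48 h against 0 h. Of the 76 listed genes tested, those called higher and lower with the block numbered 12 and 34 (6 h), 19 and 32 (12 h), 22 and 15 (24 h) and 22 and 20 (48 h). Without the block they numbered 12 and 34, 19 and 30, 21 and 15, and 21 and 20.

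With 3 libraries per time, a gene read low in 1 library (NO25G00630 in replicate a of 6 h, NO09G03110 in replicate b of 12 h) can miss calls at other times too, since all times share 1 estimate of its spread.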
